A study of Mus musculus with 6 samples.

Results

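The endothelial cells of brain capillaries form the blood-brain barrier, and 9 genes that carry out its work were followed here across the cell types of the mouse forebrain: the transporter genes Slc2a1, Abcb1a, Abcg2, Mfsd2a, Slc7a5 and Slco1a4, and the tight junction genes Cldn5, Ocln and Tjp1. They were chosen by symbol as established barrier genes, with earlier results of these data known. Each symbol matched exactly 1 of the 32285 genes of the count table. The transcripts of single nuclei had been counted by snRNA-seq, a droplet method, in flash-frozen forebrains collected on postnatal day 16 from 3 WT mice and 3 Npc1-/- littermates, none of them treated. Npc1-/- mice carry a loss-of-function allele of the lysosomal cholesterol transporter gene Npc1 in every cell and were bred as F1 hybrids of BALB/cJ and C57BL6/J parents. The counts of all mice were joined in 1 table whose barcodes end in a suffix from 1 to 6, 1 for each library. The labels do not tie a suffix to a mouse, so the genotypes were not compared, and the 6 libraries are described singly or by their range.

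Endothelial cells of most organs let small molecules pass between or through them. In the brain, tight junctions seal the gaps between the cells, so nutrients have to enter through transporters in the cell membrane, efflux pumps return drugs and toxins to the blood, and vesicle traffic across the cell is held low. Pericytes and smooth muscle cells, together called mural cells, wrap these vessels, astrocyte endfeet cover them, and the epithelium of the choroid plexus forms a separate barrier between blood and cerebrospinal fluid.

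Cell types were told apart by gates. Each of 11 cell types had a list of 8 marker genes, none of them a barrier gene followed here, and a nucleus entered a gate if it held unique molecular identifiers (UMIs, each standing for 1 captured transcript) of at least 3 markers of that list and of more markers of that list than of any other. Of 75867 nuclei, 46178 (60.9%) entered a gate, and 4089 entered the endothelial gate, with 190 to 1008 per library and a median of 3918 UMIs per nucleus. The 8 endothelial markers, which chose these nuclei, were detected in 36.6% (Tie1) to 95.1% (Flt1) of them, with Cdh5 at 37.6%, Erg at 56.1%, Pecam1 at 65.1% and Tek at 66.5%. The endothelial gate was not pure, however. At least 2 markers of another list were present in 77.3% of its nuclei, and its summed mural markers stood at 1630 CPM (UMIs of a gene per 1000000 UMIs of the gate) against 3579 CPM in the mural gate. Conversely, the endothelial markers in the mural gate reached 25.9% of their level in the endothelial gate. This percentage was 6.85% in fibroblasts, 4.83% in ependymal nuclei, 4.32% in astrocytes, 3.36% in choroid plexus, 3.17% in microglia and macrophages, 2.84% in oligodendrocytes and 2.60% in oligodendrocyte precursor cells (OPCs). It was lowest in neurons, at 1.55% in GABAergic and 1.47% in glutamatergic nuclei. UMIs of endothelial markers were thus counted in every gate, and the level of each barrier gene is read below against these percentages. Nuclei with many endothelial markers were kept out of the other gates by their definition. The percentages can therefore understate what these gates hold of endothelial RNA, and multiples of them given below can be too high. The other gates were mixed as well. At least 2 markers of another list were present in 93.2% of choroid plexus, 83.6% of ependymal, 83.2% of mural and 80.3% of fibroblast nuclei. In the remaining gates this share was 62.2% (glutamatergic neurons) to 68.6% (astrocytes). Libraries 5 and 6 stood apart from the others. Endothelial nuclei were 4.52% and 4.38% of their gated nuclei, against 9.61%, 9.89%, 10.5% and 10.7% in libraries 1 to 4.

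All 9 genes were highest in the endothelial gate. Every one was at least 2-fold above the sum of all other gated nuclei, a size that 14.5% of the 23279 genes with enough UMIs reached. Since the genes were chosen as known barrier genes, this count is a description and no test. The median log2 ratio over the 9 genes was 3.78, against 0.12 over all genes tested. The step ran from 43.6-fold for Slco1a4 to 2.37-fold for Tjp1. Between them, Abcb1a was 27.5-fold, Slc7a5 23.2-fold, Ocln 18.8-fold, Slc2a1 13.7-fold, Abcg2 12.8-fold, Cldn5 10.9-fold and Mfsd2a 8.66-fold higher. Each ratio was above 1 beyond counting error in 6 of 6 libraries. A composition-based scaling (TMM) moved the log2 ratios of all genes in this comparison by 0.19 and left all 9 genes above 2-fold. Among nuclei with fewer than 2 markers of any other list, the log2 ratio rose from 5.45 to 6.40 for Slco1a4, from 4.23 to 4.99 for Ocln and from 4.54 to 5.15 for Slc7a5. With every nucleus given equal weight it fell, from 3.78 to 3.31 for Slc2a1 and from 3.11 to 2.65 for Mfsd2a. Glutamatergic (150446830) and GABAergic nuclei (53478479) held the most UMIs of the other gates, so these ratios weigh neurons most.

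**Figure D1:**
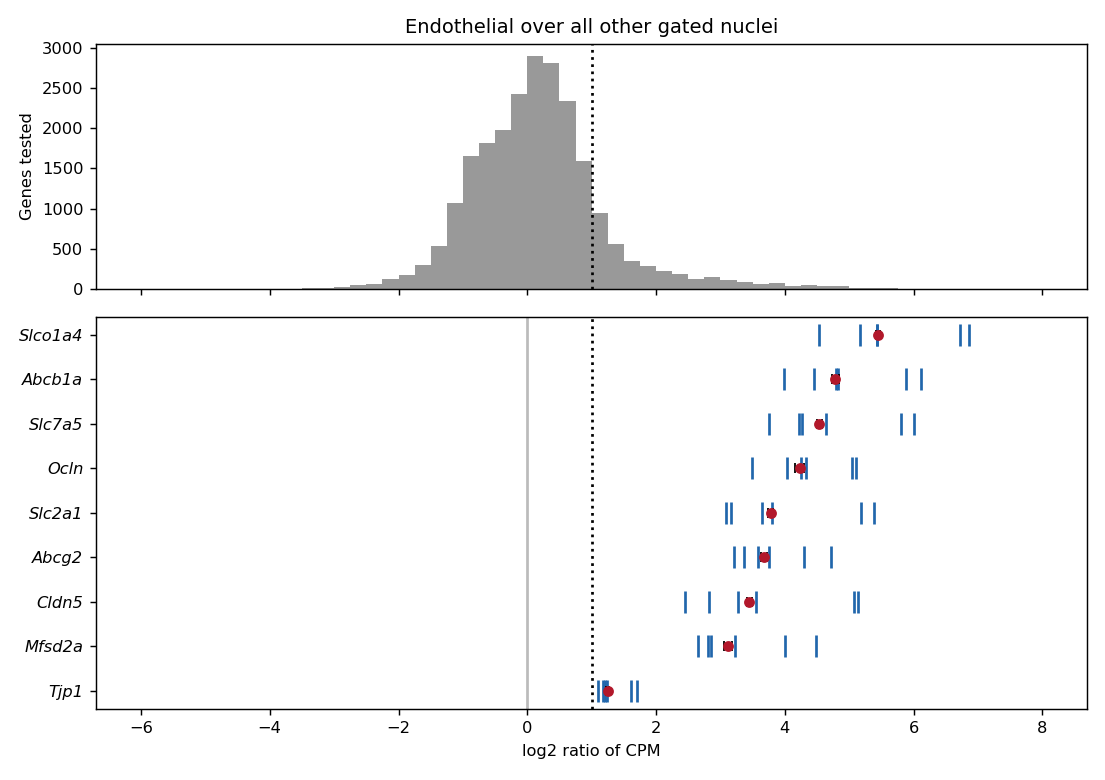
The upper panel is a histogram of the log2 ratio of CPM, endothelial over all other gated nuclei, for all genes tested, and the lower panel gives the 9 barrier genes on the same axis (red point, all libraries together with the 95% counting interval; blue ticks, each of the 6 libraries). The dotted line marks 2-fold, past which 14.5% of all genes and every library's value of the 9 genes lie.

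The promoters of 3 of these genes are shown because they span the range of that step: Slco1a4, the most concentrated in endothelial nuclei, Cldn5, a gene of a single exon, and Tjp1, the least concentrated. Sequences run 5′ to 3′ on the strand of the gene, from 250 bases before to 50 after a RefSeq transcription start (GRCm38.p6), and lie at chr6:141856171-141856470 on the minus strand, chr16:18776597-18776896 on the plus strand and chr7:65371195-65371494 on the minus strand. Capitals mark any match, on either strand, to CCGGAA (a core of ETS factor sites), CTTTGA (TCF/LEF factors of Wnt signaling) or GGGCGG (the GC box).
Slco1a4: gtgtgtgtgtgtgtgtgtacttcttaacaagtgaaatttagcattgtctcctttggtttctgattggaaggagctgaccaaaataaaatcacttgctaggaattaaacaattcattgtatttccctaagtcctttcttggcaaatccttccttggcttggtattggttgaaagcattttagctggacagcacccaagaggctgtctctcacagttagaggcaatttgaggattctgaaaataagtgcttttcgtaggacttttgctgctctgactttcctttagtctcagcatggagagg
Cldn5: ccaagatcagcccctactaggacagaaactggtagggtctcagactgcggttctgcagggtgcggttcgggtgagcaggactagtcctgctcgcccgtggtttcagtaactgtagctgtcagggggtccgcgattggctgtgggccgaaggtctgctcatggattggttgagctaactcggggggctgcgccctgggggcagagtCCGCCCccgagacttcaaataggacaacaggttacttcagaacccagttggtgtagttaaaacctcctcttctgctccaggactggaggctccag
Tjp1: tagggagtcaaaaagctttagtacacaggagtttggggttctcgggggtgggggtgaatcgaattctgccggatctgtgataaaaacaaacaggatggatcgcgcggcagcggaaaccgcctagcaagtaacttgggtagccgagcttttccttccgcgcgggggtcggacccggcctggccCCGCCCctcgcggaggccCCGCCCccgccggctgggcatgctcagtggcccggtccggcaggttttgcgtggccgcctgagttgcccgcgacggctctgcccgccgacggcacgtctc
The Slco1a4 window held 1 CpG dinucleotide and no match to any of the 3 motifs. The Cldn5 window held 12 CpGs and 1 GC box, and the Tjp1 window held 31 CpGs and 2 GC boxes. The ratio of observed to expected CpGs was 0.0817, 0.476 and 0.972 in this order, against a median of 0.384 over 32851 mouse promoters. GGGCGG was found in 35.7% of those promoters, CCGGAA in 14.9%, and CTTTGA in 5257 of them. The Tjp1 window lies at a start inside the gene as GENCODE M21 annotates it, not at its 5′ end. The promoter table used here held 8 of the 9 genes, all but Slc7a5. In it, CTTTGA had 1 match at Mfsd2a and 2 in the window listed for Abcb1a, which lies well upstream of the GENCODE start of that gene and is not shown, and CCGGAA was found in 1 of the 2 windows of Ocln.

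Slc2a1 encodes GLUT1, the transporter that brings glucose into the brain, and lies on chromosome 4 (GRCm38, 119108711 to 119137983, plus strand). In endothelial nuclei it stood at 482, 401, 284, 295, 812 and 837 CPM in libraries 1 to 6. The values of libraries 5 and 6 were above all others, and pooled over libraries the level was 415 CPM (95% interval 406 to 423, counting error only). The mural gate followed at 123 CPM, which was 29.6% of the endothelial level and close to the 25.9% of the endothelial markers. Ependymal nuclei, which line the ventricles, came next with 85.2 CPM (library range 67.1 to 123). Their 20.5% of the endothelial level was 4.25 times the percentage of the endothelial markers there, and they were above astrocytes (53.6 CPM) in 6 of 6 libraries. An excess over the markers was not particular to them. It was 1.85 times in fibroblasts and between 2.82 times (oligodendrocytes) and 3.29 times (GABAergic neurons) in the remaining gates but the mural one. Astrocytes, fibroblasts, choroid plexus and microglia, at 53.6, 52.7, 43.5 and 42.3 CPM, did not differ between neighbours in this order beyond counting error. Neurons were lowest, at 21.2 CPM in GABAergic and 18.9 CPM in glutamatergic nuclei.

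Abcb1a encodes P-glycoprotein, the main drug efflux pump of the barrier (chromosome 5, 8660077 to 8748575, plus strand). Its endothelial level was 404, 413, 342, 298, 550 and 549 CPM in libraries 1 to 6. Its other gates followed the endothelial markers closely: its percentage of the endothelial level was between 0.957 and 1.58 times that of the markers in 9 of 10 gates. The exception was the fibroblast gate, where 60.6 CPM were 15.7% of the endothelial level, or 2.29 times the percentage of the markers. Reads of the near-identical neighbour Abcb1b can be hard to assign, and its level was 5.55 CPM in endothelial nuclei against 9.80 CPM in the other gated nuclei, the opposite order to Abcb1a.

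Abcg2 encodes BCRP, the second major efflux pump (chromosome 6, 58584523 to 58695676, plus strand). Endothelial nuclei held 327, 327, 221, 238, 502 and 411 CPM in libraries 1 to 6. Mural and fibroblast nuclei followed at 101 and 97.6 CPM and could not be told apart (log2 ratio 0.04, -0.13 to 0.22). In fibroblasts this was 32.6% of the endothelial level, where the endothelial markers reached 6.85%. Microglia and macrophages came next at 51.4 CPM and OPCs at 38.8 CPM, and both steps held in 6 of 6 libraries. The percentages in these gates were 5.43 and 4.99 times those of the markers. Ependymal nuclei, astrocytes, oligodendrocytes and choroid plexus lay between 24.9 and 27.8 CPM with no difference between neighbours beyond counting error.

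Mfsd2a encodes a carrier of lysophospholipids that brings docosahexaenoic acid into the brain and keeps vesicle transport across the endothelium low (chromosome 4, 122946850 to 122961188, minus strand). Its endothelial level was 159, 137, 128, 114, 244 and 289 CPM in libraries 1 to 6, or 149 CPM over all. The mural gate was second, at 58.1 CPM or 39.1% of the endothelial level, and above astrocytes in 6 of 6 libraries. This rank includes mixed nuclei. The log2 ratio of endothelial over mural nuclei was 1.36, but 2.42 among nuclei with fewer than 2 markers of any other list. Astrocytes held 45.0, 46.5, 41.1, 46.9, 65.0 and 59.8 CPM, and OPCs 31.8, 34.0, 35.5, 33.4, 46.1 and 52.6 CPM. In both of these glial gates, as in the endothelial gate, libraries 5 and 6 were above all others. Pooled, astrocytes reached 32.3% and OPCs 24.7% of the endothelial level, 7.47 and 9.49 times the percentages of the endothelial markers. Oligodendrocytes, the descendants of OPCs, were lower at 15.5 CPM. OPCs were above the next gate, fibroblasts at 20.6 CPM, beyond counting error and in 5 of 6 libraries, with 52.6 and 52.7 CPM in library 6. All gates from fibroblasts to choroid plexus (12.2 CPM, 25 UMIs) did not differ from their neighbours. In choroid plexus nuclei of library 2 no UMI of Mfsd2a was counted. A UMI of Mfsd2a was present in 20.5% of astrocytes and in 7.05% of glutamatergic neurons, whose median depths were 3980 and 9198 UMIs. With every nucleus thinned to 2000 UMIs these shares were 10.2% and 1.84%.

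Slc7a5 encodes LAT1, which carries large neutral amino acids, thyroid hormone and the drug L-DOPA (chromosome 8, 121881150 to 121907694, minus strand). Endothelial nuclei held 499, 446, 400, 340, 1013 and 877 CPM in libraries 1 to 6. The mural gate followed at 140 CPM, with 377 CPM in library 6 against 93.8 to 204 CPM in the others. All remaining gates lay between 13.3 and 33.6 CPM. Astrocytes, choroid plexus, ependymal nuclei and fibroblasts, between 32.2 and 33.6 CPM, did not differ from each other in order beyond counting error. Outside the endothelial gate, the percentages of the endothelial level were 0.976 to 2.05 times those of the markers.

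Slco1a4 encodes OATP1A4, which moves organic anions, steroid conjugates and thyroid hormone (chromosome 6, 141805440 to 141856199, minus strand). Its endothelial level was 1234, 1224, 938, 834, 1518 and 1424 CPM in libraries 1 to 6, and of all UMIs of Slco1a4 in the table, 61.7% lay in the endothelial gate, which held 4.56% of all UMIs. No other gene of the 9 had so large a share there. Choroid plexus nuclei held 166, 132, 164, 109, 146 and 126 CPM. Pooled, these 145 CPM were 13.1% of the endothelial level, 3.88 times the percentage of the markers, and above the fibroblast gate (77.2 CPM) in 6 of 6 libraries. In the other 9 gates the percentage followed the markers, at 0.647 to 1.02 times. A UMI was present in 49.2% of choroid plexus nuclei (median depth 5018) and in 10.4% of glutamatergic neurons, and after thinning to 2000 UMIs in 25.2% and 2.92%. Slco1a4 belongs to a cluster of similar genes, and how reads shared between them were assigned is not stated.

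Cldn5 encodes claudin-5, the claudin that seals brain endothelial junctions against small molecules (chromosome 16, 18776847 to 18778262, plus strand, a single exon). Endothelial nuclei held 479, 479, 324, 237, 963 and 870 CPM in libraries 1 to 6, a 4.07-fold spread that was the widest of the 9 genes. Mural nuclei followed at 168 CPM and fibroblasts at 81.7 CPM. The remaining 8 gates lay between 25.9 CPM in glutamatergic neurons and 63.2 CPM in astrocytes, and some steps between neighbours, such as GABAergic (31.2 CPM) over glutamatergic neurons, were beyond counting error. Their percentages of the endothelial level were 2.53 to 4.92 times those of the markers. Only 30.9% of the UMIs of Cldn5 lay in the endothelial gate, which held 4.56% of all UMIs. Another 29.6% lay in nuclei of no gate, which held 31.7% of all UMIs. A UMI was present in 68.4% of endothelial and 23.2% of glutamatergic nuclei, or in 49.9% and 6.63% after thinning. No profile of free RNA was used here, and its part in the glutamatergic share was not tested.

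Ocln encodes occludin, a membrane protein of tight junctions in endothelium and epithelium (chromosome 13, 100496507 to 100552718, minus strand). The endothelial level was 168, 164, 144, 115, 221 and 218 CPM in libraries 1 to 6. Ependymal nuclei held 74.2, 76.6, 76.5, 57.5, 92.9 and 93.2 CPM, and choroid plexus nuclei 74.1, 70.8, 83.0, 51.8, 70.6 and 89.3 CPM. Pooled, these 75.1 and 73.3 CPM did not differ (log2 ratio 0.04, -0.25 to 0.32). They were 48.1% and 46.9% of the endothelial level, which is 9.94 and 13.9 times the percentages of the endothelial markers, and both stood above mural nuclei (39.9 CPM), which were the second gate for all 6 transporters and for Cldn5. The endothelial markers in the mural gate stood at 25.9% of their endothelial level, and their part in that rank was not tested. Among nuclei with fewer than 2 markers of any other list, endothelial nuclei exceeded mural ones by more for each of these genes. The log2 ratio there ran from 1.83 (Cldn5) to 4.75 (Slco1a4), and the order of the other gates among those nuclei is not given here. In glia other than ependymal nuclei and in neurons it was between 4.70 and 10.8 CPM. A UMI was present in 30.0% of ependymal and 34.5% of choroid plexus nuclei but in 2.79% of oligodendrocytes. After thinning, these shares were 14.9%, 14.8% and 0.940%.

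Tjp1 encodes ZO-1, the scaffold that ties junction proteins to the actin cytoskeleton in many cell types (chromosome 7, 65296165 to 65527781, minus strand). It was the broadest of the 9 genes. Endothelial nuclei held 1206, 1181, 1124, 1097, 1507 and 1491 CPM in libraries 1 to 6, and oligodendrocytes 842, 832, 871, 725, 892 and 903 CPM. Oligodendrocytes were thus second in every library, and pooled at 845 CPM they reached 70.9% of the endothelial level, where the endothelial markers reached 2.84%. Fibroblasts and mural nuclei followed at 610 and 603 CPM and could not be told apart (log2 ratio 0.02, -0.05 to 0.09). Astrocytes held 566 CPM and OPCs 449 CPM. The lowest level, 247 CPM in choroid plexus, was still 20.7% of the endothelial one. Of all UMIs of Tjp1, 10.4% lay in the endothelial gate, which held 4.56% of all UMIs. Another 28.2% lay in glutamatergic neurons, which held 30.2% of all UMIs. A UMI was present in 92.7% of endothelial and 92.0% of glutamatergic nuclei, and in 83.6% and 59.0% after thinning to 2000 UMIs.

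**Figure D2:**
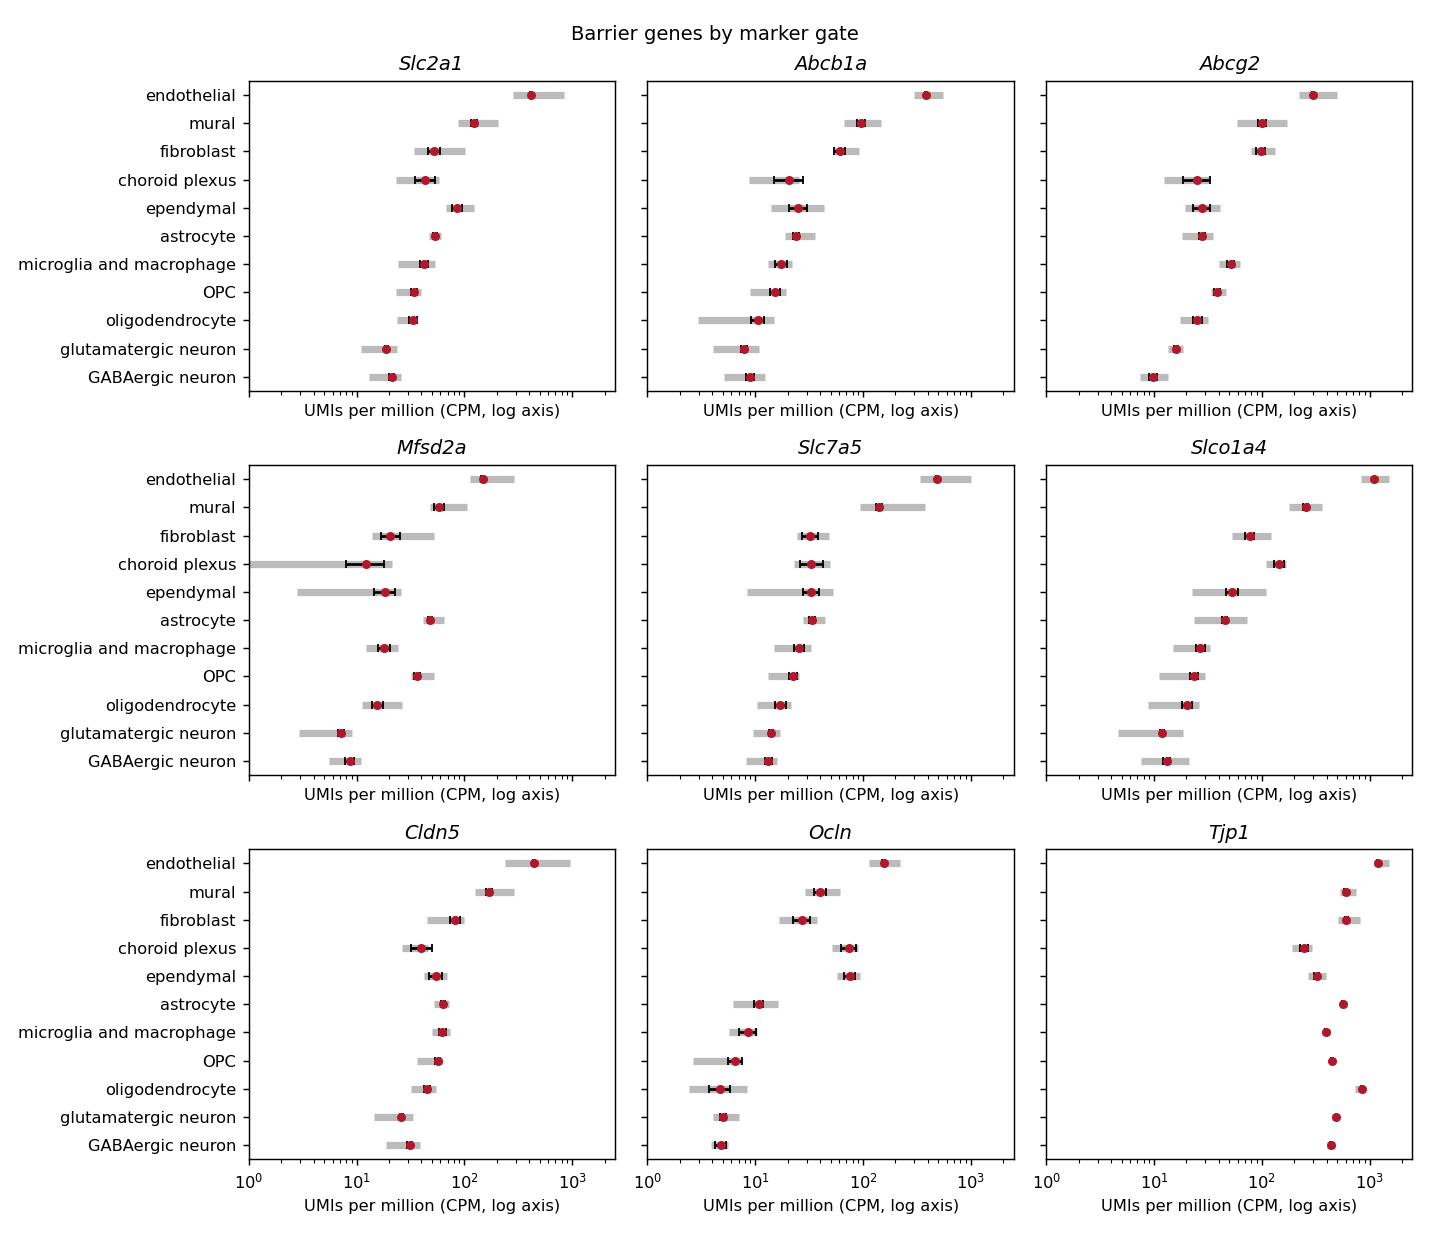
Level of each gene in each of the 11 gates in CPM on a log axis, with all libraries together as red points with 95% counting intervals (black) and the range over the 6 libraries as gray bars; the bar that reaches the left edge, Mfsd2a in choroid plexus, starts at 0. After the endothelial gate, Ocln is highest in ependymal and choroid plexus nuclei (75.1 and 73.3 CPM), Mfsd2a in mural nuclei, astrocytes and OPCs (58.1, 48.0 and 36.7 CPM) and Tjp1 in oligodendrocytes (845 CPM). These ranks include nuclei with markers of several lists.

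**Figure D3:**
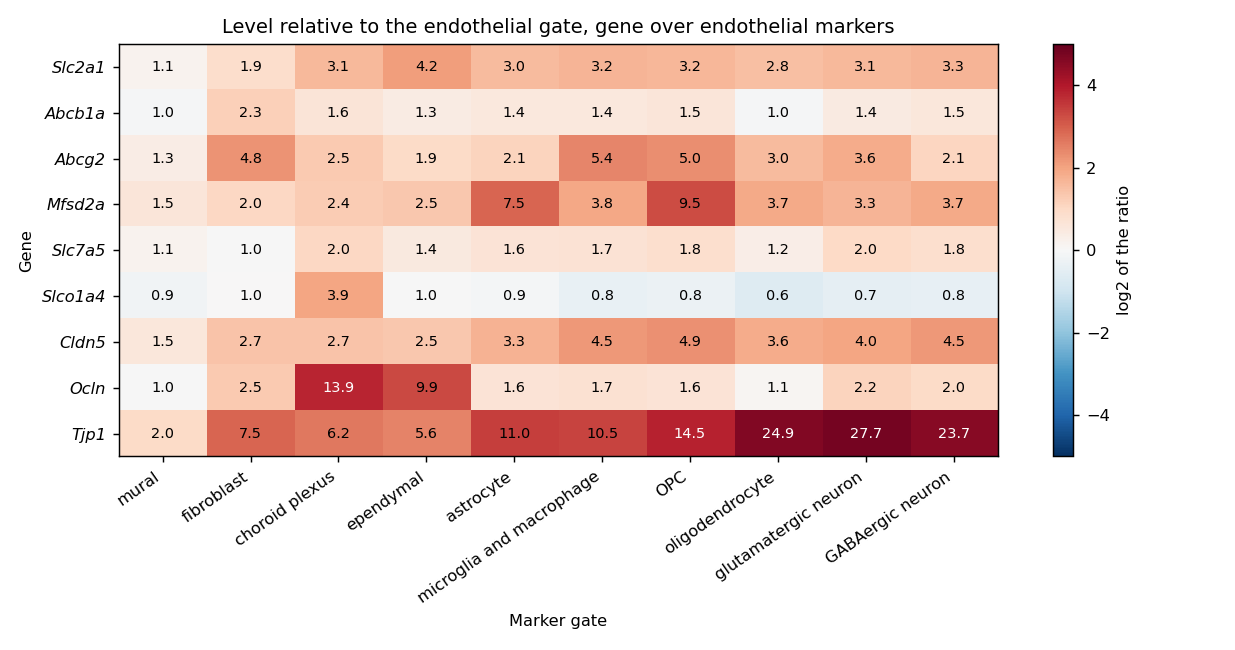
Each cell gives a gene's level in a gate as a percentage of its endothelial level, divided by the same percentage of the summed endothelial markers, with color on a log2 scale. Since the markers also chose the gates, the values can be too high. A value of 1 means that the gene fell off as the markers did. Slco1a4 lies near it in all gates but choroid plexus (3.88), and values above 5 are Ocln in choroid plexus (13.9) and ependymal nuclei (9.94), Mfsd2a in OPCs (9.49) and astrocytes (7.47), Abcg2 in microglia and macrophages (5.43) and Tjp1 in all gates but the mural one.

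The barrier genes were also counted nucleus by nucleus. The median nucleus of the endothelial gate held UMIs of 6 of the 9 genes, 63.5% held at least 6 and 13.4% held all 9. In the other gates the median nucleus held 1 or 2, and at least 6 were present in 14.5% of mural nuclei and in 0.232% to 2.44% of the remaining gates. All 9 were present in 29.5% and 27.4% of endothelial nuclei of libraries 5 and 6, against 8.10% to 14.6% in libraries 1 to 4. The median depth of endothelial nuclei was 3904 and 3762 UMIs in libraries 5 and 6 and between 3505 and 4288 UMIs in the others.

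The 2 libraries with the fewest endothelial nuclei had the highest endothelial levels of every one of the 9 genes. The lower of libraries 5 and 6 exceeded the highest of libraries 1 to 4 by 1.15-fold for Slco1a4, 1.24-fold for Tjp1, 1.26-fold for Abcg2, 1.30-fold for Ocln and 1.33-fold for Abcb1a. The excess was larger for Mfsd2a (1.54-fold), Slc2a1 (1.68-fold), Slc7a5 (1.76-fold) and Cldn5 (1.81-fold). The summed endothelial markers moved the same way, at 7312 and 6759 CPM in libraries 5 and 6 against 3997 to 5087 CPM in the others. This was not particular to the endothelial gate. The mural gate held its own markers at 4176 and 4679 CPM against at most 3853 CPM, and the astrocyte gate at 1998 and 2163 CPM against at most 1703 CPM. Own markers were also highest in these libraries in the ependymal, microglia and macrophage, OPC and oligodendrocyte gates. The fibroblast, choroid plexus and neuron gates did not show this order. Neuronal transcripts in the endothelial gate moved the opposite way: glutamatergic markers were at 207 and 185 CPM in libraries 5 and 6 and at 310 to 398 CPM in libraries 1 to 4. Mural markers in the endothelial gate were also highest in libraries 5 and 6, at 2780 and 2251 CPM against 951 to 1864 CPM.

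Set against the endothelial markers, the genes parted. Per 100 marker UMIs, Abcb1a varied by 1.14-fold over the 6 libraries, Ocln by 1.23-fold and Slco1a4 by 1.27-fold, and libraries 5 and 6 were no longer the highest for any of these. Slc2a1 still varied by 2.00-fold and Cldn5 by 2.22-fold. Slc2a1 stood at 11.1 and 12.4 UMIs per 100 marker UMIs in libraries 5 and 6 against 6.20 to 10.1 in the others, and Cldn5 at 13.2 and 12.9 against 5.92 to 10.1. Slc7a5, at 13.8 and 13.0 against 8.51 to 10.5, showed the same order. For Tjp1 the order turned, with 20.6 and 22.1 in libraries 5 and 6 and 23.2 to 27.5 in libraries 1 to 4. In endothelial nuclei with fewer than 2 markers of any other list, of which a library held 69 to 224, libraries 5 and 6 remained above the others for 7 genes. The exceptions were Slco1a4 and Ocln, whose lower value in those libraries was 0.912 and 0.987 times the highest of the others. Abcg2 was above by only 1.02-fold, at 383 CPM in library 6 against 376 CPM in library 2. Summed over all nuclei of a library, endothelial or not, the order was the reverse for 8 of the 9 genes, with Slco1a4 at 54.4 and 48.5 CPM in libraries 5 and 6 and 81.5 to 101 CPM in libraries 1 to 4. Cldn5 was the exception, because library 4 (56.9 CPM) lay below library 5 (58.4 CPM). Whether genotype, litter or preparation moves with these 2 libraries cannot be told apart, since no library could be tied to a mouse.

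**Figure D4:**
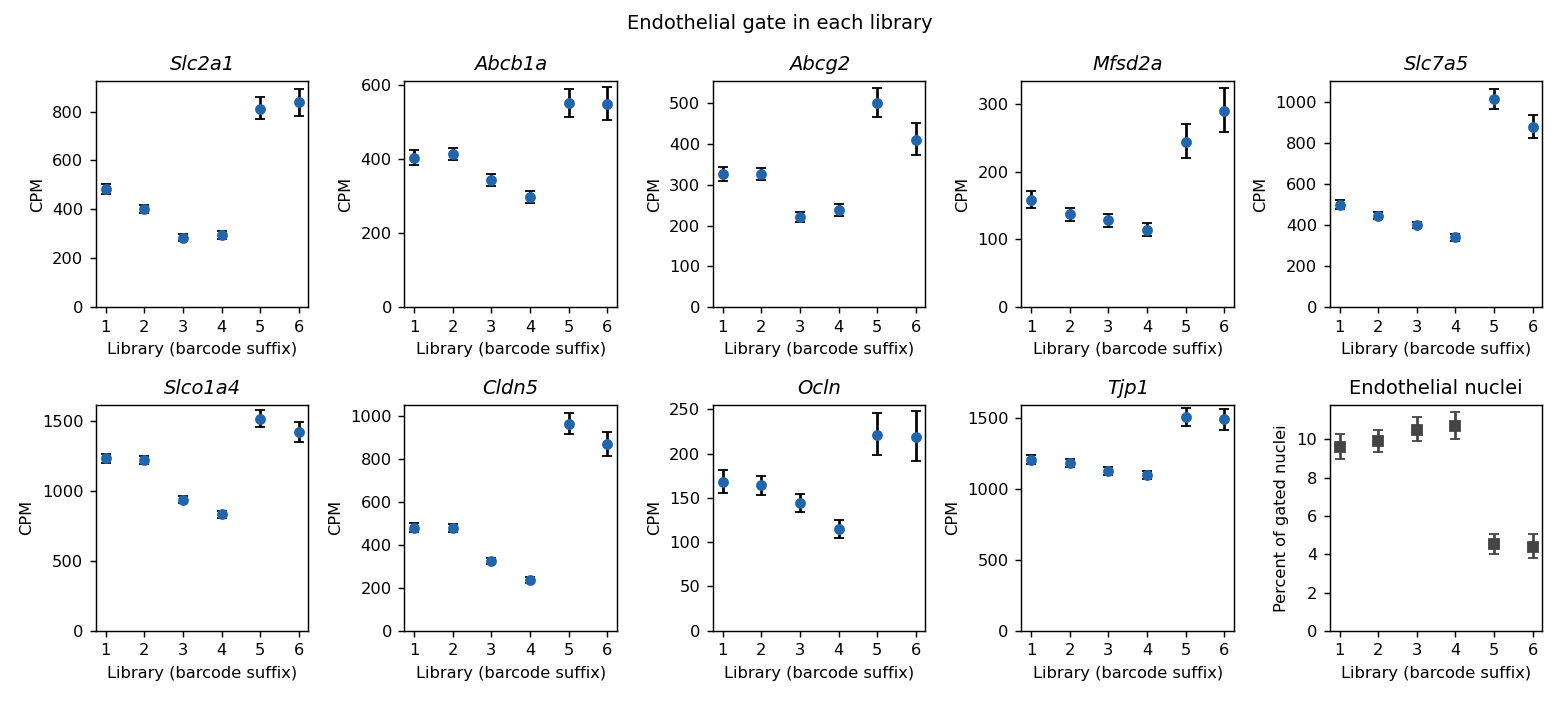
Level in the endothelial gate in CPM by library (points, with 95% counting intervals) for the 9 genes, and endothelial nuclei as a percentage of gated nuclei (squares, with 95% binomial intervals). Libraries 5 and 6 have the highest level of all 9 genes and the lowest share of endothelial nuclei, 4.52% and 4.38%.

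Mural cells share the vessel wall with the endothelium, and the 9 genes were compared between both gates. Of them, 8 were at least 2-fold higher in endothelial nuclei, where 6.25% of 17756 genes reached that size. The log2 ratio was 2.12 for Slco1a4, 2.01 for Abcb1a, 1.97 for Ocln, 1.78 for Slc7a5, 1.76 for Slc2a1, 1.57 for Abcg2, 1.40 for Cldn5 and 1.36 for Mfsd2a, each above 0 in 6 of 6 libraries. Tjp1 fell just short at 0.98 (0.93 to 1.03) and passed 2-fold without library 4 (1.06), whose own value was 0.71. Among nuclei that held fewer than 2 markers of every other list (213 of them mural), all 9 passed and the ratios were larger, with Slco1a4 at 4.75 and Slc7a5 at 3.99. The part of the endothelial markers in the mural gate, at 25.9% of their endothelial level, in the ratios over all nuclei was not tested.

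Within the endothelial gate, nuclei were further divided by markers of arteries and veins, with at least 2 distinct markers of either list needed and more than of the other. This gave 430 arterial-marker nuclei (24 to 110 per library) and 728 venous-marker nuclei (37 to 181 per library), with median depths of 5873 and 5514 UMIs. The remaining 2931 nuclei held fewer than 2 markers of either list or equal numbers of both. Every arterial marker, such as Bmx (109 against 1.88 CPM), was higher in arterial-marker nuclei. The venous markers Il1r1 (312 against 23.4 CPM), Ephb4 and Ackr1 were higher in venous-marker nuclei, with smaller steps for Vwf (172 against 115 CPM) and Nr2f2 (139 against 80.1 CPM). Vcam1 went the other way (42.1 against 58.9 CPM), and Selp and Ch25h had at most 0.751 CPM in either set. None of the 9 genes was 2-fold apart, where 4.41% of 14931 genes were. Smaller differences were seen. Tjp1 was lower in arterial-marker nuclei, at 1051 against 1551 CPM (log2 ratio -0.56, -0.62 to -0.51), and below 0 in 6 of 6 libraries. Slc7a5 was also lower in 6 of 6 libraries, at 399 against 585 CPM (-0.55, -0.64 to -0.46). Both efflux pumps were lower in 5 of 6 libraries, Abcg2 by a log2 ratio of -0.46 and Abcb1a by -0.34, and library 5 went the other way for each. Mfsd2a had the opposite direction, at 188 CPM in arterial-marker and 135 CPM in venous-marker nuclei (0.48, 0.33 to 0.63), above 0 in 6 of 6 libraries, with library values from 0.24 to 1.12. Slc2a1 (0.01, -0.07 to 0.10) and Slco1a4 (0.02, -0.03 to 0.07) had nearly equal levels.

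These arterial and venous values depended on the nuclei admitted. When nuclei with 2 or more markers of any other list were left out, 52 arterial-marker and 103 venous-marker nuclei remained. Tjp1 (-0.43) and Mfsd2a (0.63) then kept their direction and Cldn5 went from 0.11 to 0.79, but Slc7a5 (0.18), Abcb1a (0.17), Abcg2 (0.03) and Ocln (0.08) turned from below to above 0. Mural markers, at 3001 CPM in arterial-marker and 2083 CPM in venous-marker nuclei, differed between both sets, and their part in the result was not tested.

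**Figure D5:**
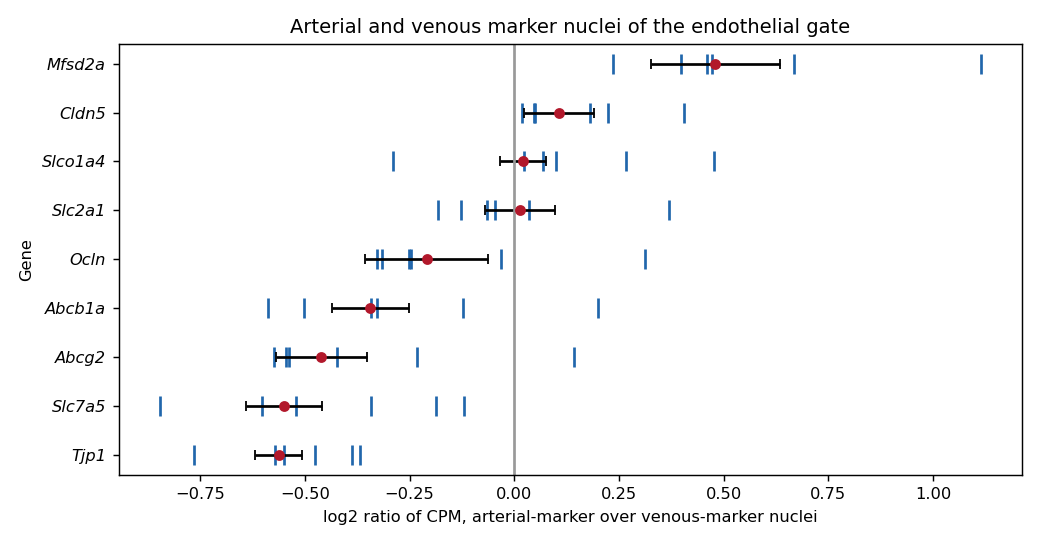
Log2 ratio of CPM between arterial-marker and venous-marker nuclei of the endothelial gate for the 9 genes (red points, all libraries, with 95% counting intervals; blue ticks, each library). Mfsd2a (0.48) lies above 0 and Tjp1 (-0.56) and Slc7a5 (-0.55) lie below 0 in all 6 libraries, and no gene reaches 2-fold.

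A further 61 genes of the barrier were listed by role, with earlier results of these data known. Of them, 49 were at least 2-fold higher in endothelial than in other gated nuclei, against 14.5% of all genes tested. Since known barrier genes were listed, this count too is a description and no test. Among transporters, 19 of 21 passed, with the thiamine transporter Slc19a3 at a log2 ratio of 4.91, the iron exporter Slc40a1 at 4.33 and the organic anion transporter Slc22a8 at 4.09. The others were Abcb1b (-0.82) and Lrp1 (-0.44), which were highest in microglia and macrophages. Junction genes were less uniform: 9 of 16 passed, led by Cgnl1 (3.85), Lsr (3.79), a protein of junctions where 3 cells meet, and Esam (3.78). Passing this comparison with the sum of the other gates did not mean that the endothelial gate was highest. Cgnl1 was at 250 CPM in choroid plexus and 207 CPM in endothelial nuclei, F11r at 52.5 CPM in microglia and macrophages and 43.1 CPM in endothelial nuclei, and Afdn at 407 CPM in fibroblasts and 375 CPM in endothelial nuclei. Of the junction genes that did not pass, Cgn, Cldn1 (37.6 CPM), Tjp3 (18.1 CPM) and Marveld3 (10.7 CPM) had their highest value in choroid plexus and Jam3 (358 CPM) in oligodendrocytes. Cldn12 ranged from 7.03 CPM in oligodendrocytes to 15.6 CPM in choroid plexus, with 14.4 CPM in endothelial nuclei, and Cldn3 had 43 UMIs in all gates together. Marveld3 counted as lower, with 2 UMIs in endothelial nuclei (log2 ratio -2.81, -5.86 to -0.94). Among genes that regulate the barrier, mostly of Wnt signaling and endothelial transcription, 17 of 19 passed, with Sox7 at 4.56, Sox17 at 4.52 and Notum, an inhibitor of Wnt ligands, at 4.49. The Wnt coreceptor genes Lrp6 (0.54) and Reck (0.08) did not. Among genes of vesicles and fenestrae, Cav1 (3.13), Cavin1 (3.04), Cavin2 (2.80) and Cav2 (2.19) passed. The fifth was Plvap, which marks the diaphragms of leaky vessels. It stood at 3.48 CPM in endothelial and 4.96 CPM in other gated nuclei. Across gates it ranged from 2.36 CPM in fibroblasts to 6.92 CPM in GABAergic neurons. A UMI of it was present in 74 of 4089 endothelial nuclei, and 4 of these nuclei held 2 or more. Between arterial-marker and venous-marker nuclei, the amino acid transporter Slc38a5 (-1.45) and the metal transporter Slc39a8 (-1.36) were at least 2-fold lower in the former and Sox17 (1.01) at least 2-fold higher, each in the same direction in 6 of 6 libraries. These were the only calls among 21 transporter, 12 junction, 19 regulator and 5 vesicle genes tested, beside 4.41% of all genes, and so no result about the lists.

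Each barrier gene was also set beside the genes whose levels across the 11 gates were most like its own. These were sought among 17875 genes, gate markers left out, by Pearson correlation of log2 CPM. For Cldn5 these were Icam2 (r = 0.997), Vwa1 (0.994) and Ctla2a (0.993). For Slc7a5 they were Zfp366 (0.998), Adgrf5 (0.997) and Sox17 (0.997), for Abcb1a Cd151 (0.994), Ramp2 (0.991) and Klf2 (0.991), and for Slc2a1 Kdr (0.982), Hspb1 (0.980) and Myct1 (0.979). Slco1a4 was most like N4bp3 (0.980) and Slc19a3 (0.979), and Abcg2 most like Trim25 (0.974) and Csnk1g3 (0.972). Ocln was most like Paqr5 (0.991) and Csrp2 (0.985), and Mfsd2a most like Slc36a4 (0.967), Hip1 (0.947) and Apln (0.939). For Tjp1 the highest value was 0.910, with Klf7, lower than for the other 8 genes. These are descriptions over 11 gates that share libraries and droplets.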

How the data were processed

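Nuclei from the forebrain of 3 WT and 3 Npc1-/- mice were sequenced as 3' droplet libraries. The deposited table holds raw UMI counts as integers, 1 row per gene and 1 column per barcode. Its header names Cell Ranger 6.0.0, whereas the submitters' processing notes name Cell Ranger 2.1.1 and mm10, and the authors describe STARsolo, empty droplet and doublet removal, imputation and log-normalization. Which of these steps the counts went through is not stated. No doublet caller was run here, and 1264 nuclei (65 endothelial) have a barcode sequence found in more than 1 library.

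The table held 75878 barcodes and 497750379 UMIs, with 51343653 to 107583300 UMIs per library. Nuclei with a mitochondrial share at or above 10% (11) were left out. Members and lists were chosen with earlier results of these data known. Gates needed 3 distinct markers of 8. In the endothelial gate, 604 nuclei (14.8%) had exactly 3 markers and 1034 (25.3%) led by 1 marker. UMIs were summed per gate and scaled to CPM. Sums carry exact Poisson intervals, shares exact Clopper-Pearson intervals and ratios exact intervals from the binomial distribution of both counts, all at 95% and for counting error only. A gene counted as higher or lower if 2-fold apart with at least 20 UMIs in total. No p-value is given, since libraries could not be assigned to groups. Genes named among the other barrier genes were the 3 highest and 2 lowest ratios of each list, and other names were chosen after their values were seen. Genes of like pattern were the 3 of highest r among genes with at least 200 UMIs that were no gate marker, on log2(CPM + 1). Shares were also computed for nuclei thinned to 2000 UMIs, leaving out shallower nuclei (310 endothelial, 164 glutamatergic, 436 astrocyte, 35 ependymal, 6 choroid plexus and 78 oligodendrocyte). Positions are from GENCODE M21, promoters from RefSeq (GRCm38.p6). Python 3.11.15 with numpy 2.4.6, scipy 1.17.1 and pandas 2.3.3 was used, and R 4.3.3 with edgeR 4.0.16 for TMM factors. The code was tested on simulated data. Alternatives were 2 or 4 markers per gate, nuclei without 2 markers of another list, no mitochondrial limit, a minimum of 2000 UMIs, TMM, equal weight of nuclei, no UMI minimum and leaving out libraries.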

Additional observations from a re-analysis of the deposited data

How the results depend on the processing

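The counts of genes past 2-fold were steady. All 9 barrier genes were 2-fold higher than in other gated nuclei under each of 15 alternatives, and none was 2-fold apart between arterial-marker and venous-marker nuclei under any. Leaving out 1 library at a time gave 9 and 9 for the former, 8 to 9 against mural nuclei, 0 and 0 between the arterial-marker and venous-marker sets, and 48 to 50 for the other barrier genes. Without libraries 5 and 6, an alternative chosen after seeing the data, the counts were 9, 8, 0 and 48. The sizes of the log2 ratios moved more: 145 of 405 values moved beyond the counting interval, most often when nuclei with 2 markers of another list were left out (26). As the 405 values cover all 15 alternatives, these 26 were nearly all values of that alternative. Equal weight of nuclei moved 23. Over all alternatives, 86 values of the comparison with other gated nuclei moved and 49 did not. No paired analysis was possible because no library could be tied to a numbered WT or Npc1-/- mouse; the gates themselves were compared within each library, as given beside the ratios. Tjp1 passed 2-fold over mural nuclei, for a count of 9, also with 2 markers per gate, under TMM, with equal weight of nuclei and without nuclei that held 2 markers of another list. Few nuclei limited the small gates: choroid plexus, with 325 nuclei at a median depth of 5018 UMIs, held 25 to 150 UMIs of each gene other than Slco1a4 and Tjp1.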
